A study of Mus musculus with 21 samples.

Results

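Matrix metalloproteases and their inhibitors comprised 54 of the 21631 protein-coding genes on chromosomes 1 to 19 and X of the mouse genome. They were defined by symbol: 23 Mmp genes, 19 Adamts genes, 4 Timp genes and the 8 genes Adam8, Adam9, Adam10, Adam12, Adam15, Adam17, Adam19 and Adam33. The group was chosen with earlier results of these data known. Peaks of estrogen receptor alpha (ERα) counted for a gene when their summit fell in the gene span or at most 25 kb from either end. All 54 genes were found in the gene table. Their spans ran between 3.88 kb (Mmp23) and 341.9 kb (Adam12), with a median of 24.7 kb, against 17.3 kb over all genes.

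The series mapped ERα, a transcription factor activated by estradiol, by ChIP-seq, the sequencing of DNA pulled down with an antibody to the protein. The mice were CD-1, an outbred stock, aged 10 weeks. The groups were vWAT, scWAT, BAT and Liver of mice given estradiol (4, 3, 1 and 2 libraries) and vWAT of mice given vehicle (2 libraries). WAT stands for white adipose tissue in the title of the series. All groups shared the strain, the age and the antibody sc543. Each group had 1 deposited peak list, so the counts below have no error between animals and could not be tested across replicates.

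The MMPs are zinc-dependent proteases that cleave collagens, gelatin, laminins and other matrix proteins outside the cell or at its surface. The ADAMTS enzymes are secreted relatives that trim procollagens or cut the large proteoglycans aggrecan and versican, and the ADAMs are mostly membrane-bound sheddases that release growth factors, cytokines and receptors from the cell surface. The TIMPs are small secreted proteins that block these enzymes, with TIMP3 the broadest among them. In fat, such proteases open the matrix around adipocytes and their precursors as the tissue grows or regresses.

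With estradiol, the vWAT list had 20715 peaks, the scWAT list 17971, the BAT list 5193 and the Liver list 21411, against 7400 in the vWAT vehicle list. The read depth behind them is unknown, and a peak missing from a list is one that was not called there at a cut-off that is not given. List length, number of libraries and depth cannot be told apart from tissue or treatment. Within bulk tissue, fewer cells of a type and less binding per cell cannot be told apart. As a check of the labels by peaks alone, 6 of 6 adipocyte markers had a peak in vWAT with estradiol, 5 in scWAT, 2 in BAT and 4 in Liver, against 3 in vWAT with vehicle. Of 5 hepatocyte markers 2, 1, 0 and 3 had a peak in the estradiol lists of vWAT, scWAT, BAT and Liver, against 0 in the vehicle list. Of 4 brown adipocyte markers 2, 1, 2 and 1 had one, against 1 with vehicle. For 5 stroma markers the counts were 4, 4, 0 and 4, against 1, and for 3 mesothelium markers 3, 1, 1 and 1, against 2. For 3 endothelium markers they were 1, 1, 1 and 2, against 1, and for 3 macrophage markers 2, 2, 1 and 3, against 1. Over all genes the shares with a peak were 61.5, 61.0, 29.7 and 67.5%, against 44.8% with vehicle. The hepatocyte count in Liver was thus no higher than the share of all genes, and BAT did not stand out by brown adipocyte markers. These few markers do not check the labels of Liver and BAT. A peak near a marker gene is no measure of its expression. The part of other cell types in the results below was not tested.

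The protease genes had a peak no more often than genes of their size. In vWAT with estradiol 35 of 54 members (64.8%, 95% Wilson interval 51.5 to 76.2%) had at least 1 peak, beside 61.5% of all genes and 36.6 members if they had behaved like genes of the same span. In scWAT 33 members had a peak, beside 61.0% of all genes and 36.0 members for like span. BAT gave 11 members, beside 29.7% and 18.2, and Liver gave 34, beside 67.5% and 40.7. In vWAT with vehicle 19 members had a peak, beside 44.8% of all genes and 26.3 for like span. The values for like span are sums, over the members, of the share of other genes with a peak in the same span class. There were 20 span classes, each of 1074 to 1082 genes. The class of the longest genes, which holds Adam12 and Adamts2, runs up to 2390 kb. In all 5 lists the count of members was below that of genes of like span, and it was closest in the 2 lists of white fat with estradiol.

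The number of peaks per gene gave another picture. Counting each peak once for every member it reached, members held 127 peaks there, beside 88.9 for like span (ratio 1.43). The ratio was 1.10 in scWAT (89 peaks), 0.595 in BAT (14) and 0.672 in Liver (62), against 0.734 in vWAT with vehicle (29). Of the 127 peaks 42, or 33.1%, belonged to Adam12, Adamts2 and Adamts9. Without Adam12 and Adamts2, a pair left out after its values were seen, the ratios were 1.12 in vWAT with estradiol, 0.821 in scWAT, 0.495 in BAT and 0.661 in Liver, against 0.709 in vWAT with vehicle. The excess of peaks in white fat was thus carried largely by a pair of long genes, and in scWAT it was below 1 without them.

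**Figure D1:**
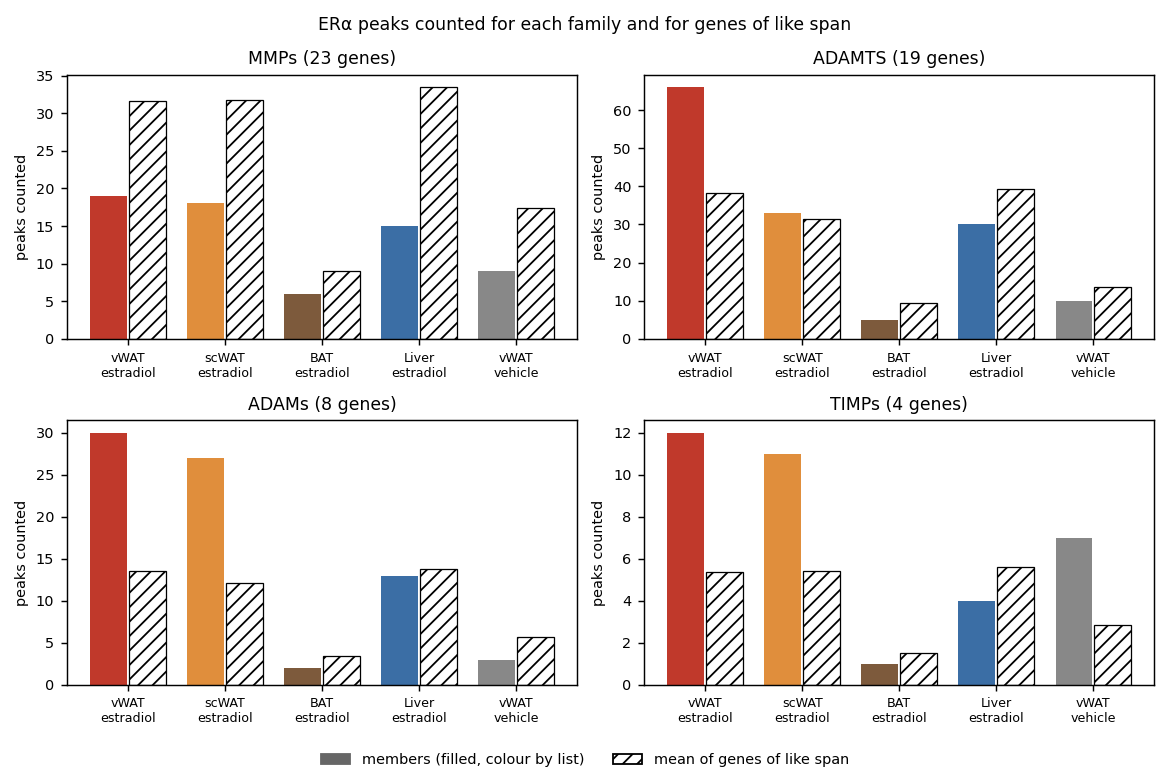
Number of ERα peaks counted for the members of each family (filled bars, coloured by list) and the mean number that genes of like span held (hatched bars), by peak list; each panel has its own vertical axis from 0. MMP bars lie below their hatched partners in all 5 lists, ADAMTS bars lie well above theirs only in vWAT with estradiol (66 beside 38.4), ADAM bars do so in vWAT and scWAT with estradiol, and TIMP bars in these and in vWAT with vehicle.

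The families differed. The 23 MMP genes held 19 peaks in vWAT with estradiol, beside 31.7 for like span, and were below like span in the other lists too (18 beside 31.7 in scWAT, 6 beside 9.03 in BAT, 15 beside 33.5 in Liver, and 9 beside 17.4 in vWAT with vehicle). The 19 ADAMTS genes held 66 peaks in vWAT with estradiol (38.4 for like span), 33 in scWAT (31.5), 5 in BAT (9.53) and 30 in Liver (39.4), against 10 in vWAT with vehicle (13.6). For the 8 ADAM genes the counts were 30 (13.5), 27 (12.2), 2 (3.45) and 13 (13.8) in vWAT, scWAT, BAT and Liver with estradiol, against 3 (5.69) in vWAT with vehicle. The 4 TIMP genes held 12 (5.36), 11 (5.42), 1 (1.53) and 4 (5.59), against 7 (2.85). Much of the low MMP count came from 1 run of 10 Mmp genes on chromosome 9, which gave 2 of the 19 counts in vWAT with estradiol, beside 13.3 for like span. The other 13 MMP genes held 17 peaks in vWAT (18.4), 16 in scWAT (18.1), 6 in BAT (5.24) and 10 in Liver (19.5) with estradiol, against 9 in vWAT with vehicle (9.66), so that Liver alone gave them well under the count of like span. Likewise, the high ADAM count came mostly from Adam12, without which the other 7 held 12 peaks in vWAT (10.6) and 13 in scWAT (10.1) with estradiol, against 3 in vWAT with vehicle (4.98). These splits were made after the values were seen. The TIMP genes were above like span in vWAT with estradiol (ratio 2.24) and in scWAT (2.03), and also in vWAT with vehicle (2.46).

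**Figure D2:**
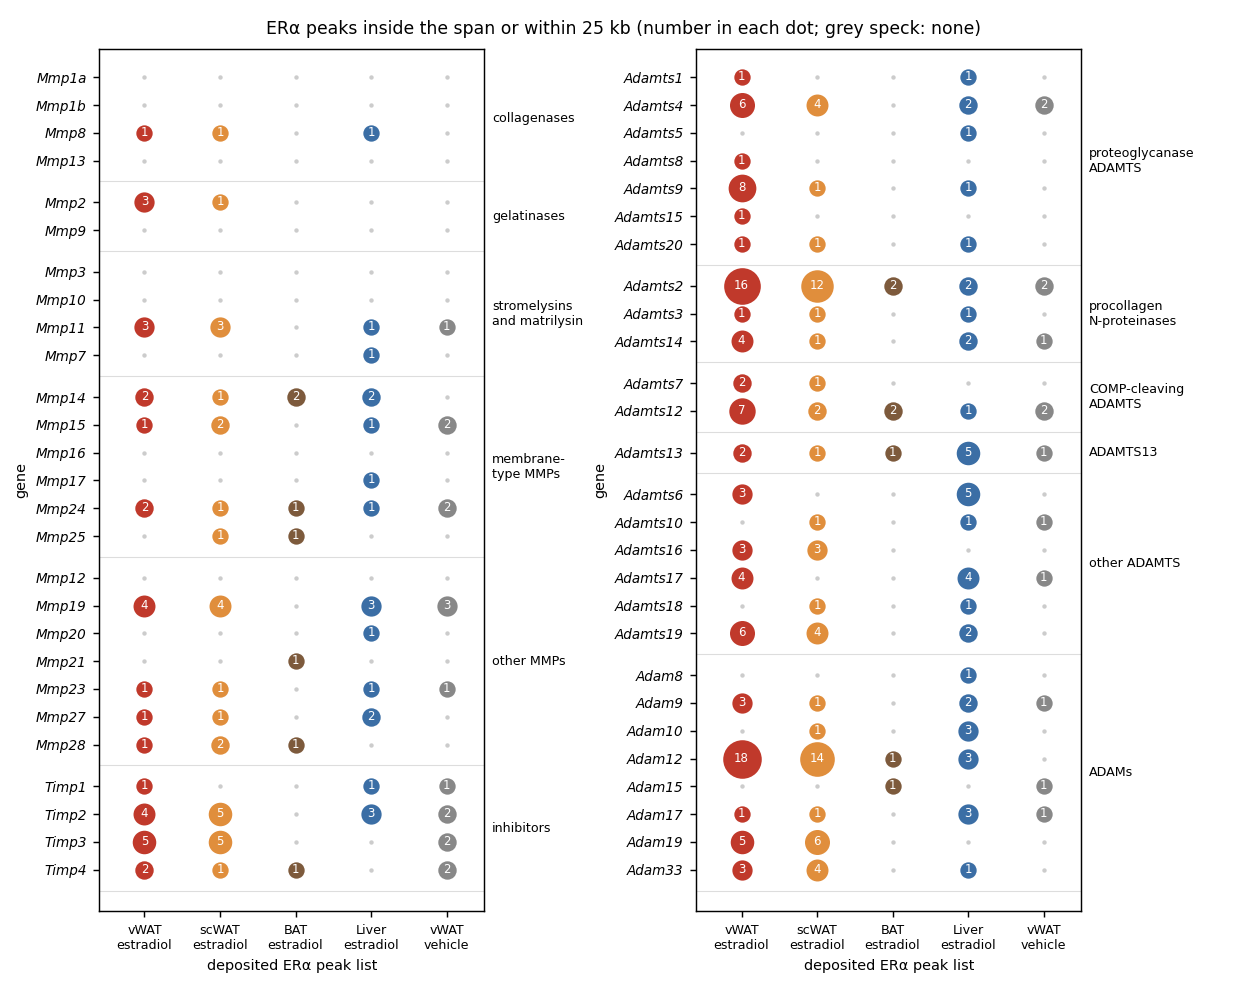
ERα peaks of all 54 members, by role and by deposited list; the number in each dot is the count of peaks inside the span or within 25 kb, dot area grows with it, and a grey speck marks none. Adam12 (18) and Adamts2 (16) have the largest counts in vWAT with estradiol, and Mmp1a, Mmp1b, Mmp3, Mmp9, Mmp10, Mmp12, Mmp13 and Mmp16 have no peak in any list.

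The collagenases, which cut fibrillar collagen, gave almost no peaks. Mmp1a, Mmp1b and Mmp13 had none in any list. Mmp8, the neutrophil collagenase, had 1 peak in vWAT with estradiol, 1 in scWAT, 0 in BAT and 1 in Liver, against 0 in vWAT with vehicle, and each of these was also counted for its neighbour Mmp27. The vWAT estradiol peak (chr9:7569810-7570239, enrichment 4.27) lay 1.55 kb outside Mmp8 and 1.36 kb outside Mmp27, and the Liver peak (chr9:7575861-7576166, 7.10) lay inside Mmp27. Enrichment values are those deposited by the authors, over a background that is not stated, and can be compared only within a list. Both genes belong to a run of 10 Mmp genes on chromosome 9 (chr9:7272514-7699585), which also holds Mmp12, the macrophage elastase, the stromelysins Mmp3 and Mmp10, the matrilysin Mmp7 and the enamel protease Mmp20. Over this whole run the estradiol lists had 1 distinct peak in vWAT, 1 in scWAT, 0 in BAT and 3 in Liver, against 0 in vWAT with vehicle. Counted by gene, 2 of these 10 genes had a peak in vWAT with estradiol, beside 6.60 for genes of like span.

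The gelatinases degrade denatured collagen and basement membrane collagen, and only Mmp2 of the pair had peaks. Mmp2 held 3 peaks in vWAT with estradiol and 1 in scWAT, and 0 in BAT and Liver, against 0 in vWAT with vehicle. All 3 vWAT peaks lay inside the gene, with enrichments of 4.93 (chr8:92835105-92835482), 4.62 and 4.57, and the scWAT peak overlapped the strongest of them. Mmp9 had no peak within reach in any list, but each of the 5 lists had a summit 28.6 to 28.7 kb from its span, just past the limit of 25 kb.

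Among the stromelysins and matrilysin, Mmp11, which is activated inside the cell by furin, held 3, 3, 0 and 1 peaks in vWAT, scWAT, BAT and Liver with estradiol, against 1 in vWAT with vehicle. None lay inside Mmp11. Its strongest vWAT estradiol peak (chr10:75951695-75952129, enrichment 5.89) was 19.4 kb off, nearer to Vpreb3, and overlapped a vehicle peak (5.56). Mmp3 and Mmp10 had no peak in any list. Mmp7 and Mmp20 shared a single Liver peak between them (chr9:7690935-7691232, 3.33), 1.08 kb from Mmp7 and 16.05 kb from Mmp20.

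The membrane-type MMPs act at the cell surface, and Mmp14, the main activator of pro-MMP2, is the best studied of them. It held 2, 1, 2 and 2 peaks in vWAT, scWAT, BAT and Liver with estradiol, against 0 in vWAT with vehicle. Its strongest vWAT peak (chr14:54449176-54449578, 4.97) was 6.92 kb from the span with no nearer gene, and the next (4.84) lay 4.84 kb off beside Mrpl52 and overlapped a BAT peak. Mmp24 had peaks in all 5 lists, namely 2, 1, 1 and 1 with estradiol, against 2 with vehicle, but hardly at shared places. Its pair of vWAT estradiol peaks (chr2:155805556-155805956, 4.13, and a second of 4.03) lay inside the gene and in no other list, whereas the vehicle peaks (5.002 and 4.36) lay at Eif6 and BC029722. The nearer vehicle summit was nonetheless only 0.579 kb outside the Mmp24 span, and the BAT summit 0.955 kb outside it. Mmp15 held 1, 2, 0 and 1 peaks with estradiol, against 2 with vehicle, and its vWAT estradiol peak (chr8:95332074-95332393, 3.39) lay 20.1 kb off in Usb1. Mmp16, 264.4 kb long, had no peak in any list, and its nearest vWAT estradiol summit was 1284 kb away. Mmp17 had a single Liver peak (chr5:129576305-129576602, 3.31) and Mmp25 1 peak each in scWAT and BAT. Outside the vWAT estradiol list, most peaks of this group lay nearer to another gene.

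Of the other MMPs, Mmp19 had the strongest peak, which was held without added hormone too. It held 4, 4, 0 and 3 peaks in vWAT, scWAT, BAT and Liver with estradiol, against 3 in vWAT with vehicle. The strongest (chr10:128821380-128822082, enrichment 12.9, rank 911 of 20715 in vWAT with estradiol) lay 20.9 kb off in Sarnp, and its vehicle counterpart had an enrichment of 16.3 at rank 193 of 7400. A pair of weaker peaks 10.5 and 11.4 kb from Mmp19, with no gene nearer, was found in vWAT with estradiol (5.03 and 4.63), in scWAT and in vWAT with vehicle. Mmp23 held 1 peak in each list but BAT, all 14.8 to 14.9 kb off at Mib2 (chr4:155669078-155669471, enrichment 5.57 in vWAT with estradiol and 6.03 in vWAT with vehicle). Mmp28, or epilysin, held 1, 2, 1 and 0 peaks with estradiol, against 0 with vehicle, the vWAT peak lying at a gene end (chr11:83441152-83441519, 3.85). Mmp27 held 1, 1, 0 and 2, against 0. Mmp21, which is needed for left-right patterning in the embryo, had a BAT peak alone (chr7:133669230-133669528, 4.51), inside Edrf1.

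The proteoglycanase ADAMTS genes were led by Adamts9, which cuts versican and aggrecan. It held 8 peaks in vWAT with estradiol, 1 in scWAT, 0 in BAT and 1 in Liver, against 0 in vWAT with vehicle. All 8 lay inside its 171.8 kb span, the strongest (chr6:92857789-92858276, 12.3, rank 1066) 85.5 kb from the start site, and 7 of the 8 were in no other list. Of 1077 genes of like span 31 held as many vWAT estradiol peaks. Adamts20, its closest relative, held 1, 1, 0 and 1, against 0, with the vWAT peak (chr15:94325852-94326491, 8.13) found in scWAT too. Thus the same family branch held a dense gene and a gene with a single peak.

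Adamts4, an aggrecanase, held 6, 4, 0 and 2 peaks with estradiol, against 2 in vWAT with vehicle, although its span is 12.1 kb, and 7 of 1078 genes of like span held as many in vWAT with estradiol. Only 2 of the 6 were nearest to Adamts4 (3.67 at a gene end and 3.21 inside). Adamts8 and Adamts15, which neighbour each other on chromosome 9, had 1 vWAT estradiol peak each and none in another list (chr9:30980718-30981071, 5.10, and chr9:30899968-30900263, 4.24). Adamts1 held 1 peak in vWAT with estradiol and 1 in Liver, at different places. Adamts5, the other main aggrecanase, had a Liver peak alone (chr16:85906962-85907259, 3.33).

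The procollagen N-proteinases remove the amino-terminal propeptide of fibrillar procollagens, and Adamts2, mutated in a human form of Ehlers-Danlos syndrome, was the densest. It held 16 peaks in vWAT with estradiol, 12 in scWAT, 2 in BAT and 2 in Liver, against 2 in vWAT with vehicle. The strongest (chr11:50827552-50828056, 14.6) lay 20.2 kb outside the gene, beside Zfp354c, and was held in all 5 lists. The other 15 lay inside the span, led by peaks of 12.3 (chr11:50695800-50696623) and 10.8 (chr11:50672603-50673187), and 1 of the 15 overlapped a vehicle peak. Of the 1074 genes in its span class, which takes in much longer genes, 10 held 16 or more. Adamts3 held 1, 1, 0 and 1, against 0, its vWAT peak (chr5:89715599-89716168, 5.31) being shared with scWAT. Adamts14 held 4, 1, 0 and 2, against 1, the strongest (chr10:61285372-61285691, 4.49) lying 12.2 kb off and absent from the other lists. So 21 of the 66 ADAMTS peaks in vWAT with estradiol fell to this trio, 16 of them to Adamts2.

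Adamts7 and Adamts12 encode proteases that cleave cartilage oligomeric matrix protein. Adamts12 had peaks in all 5 lists, 7, 2, 2 and 1 with estradiol, against 2 in vWAT with vehicle. The strongest (chr15:11295095-11295575, 10.0) lay inside the gene, 230.6 kb from the start site, and was shared with scWAT alone, and a weaker one (4.90) was shared with scWAT and vehicle. The BAT and Liver peaks overlapped none of the others. Adamts7 held 2 weak vWAT estradiol peaks (up to 4.05, chr9:90145773-90146100) and 1 in scWAT, against 0 with vehicle.

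Adamts13, whose product cuts von Willebrand factor in blood, is made mainly in the liver. It held 2, 1, 1 and 5 peaks with estradiol, against 1 in vWAT with vehicle. In every list its strongest peak was the same one (chr2:26964151-26964810 in vWAT with estradiol), 8.88 kb outside the gene and beside Rexo4, 0.1 kb away. That peak had an enrichment of 23.1 and rank 5 in vWAT with estradiol, 16.1 in scWAT, 17.2 in BAT and 20.9 in Liver, against 23.5 and rank 9 in vWAT with vehicle. Only Liver had peaks inside Adamts13, a pair with an enrichment of 3.33 each, 0.963 and 11.3 kb from the start site. Both were weak calls, with a −log10 q-value of 1.29 and a shared rank of 12291 of 21411.

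Of the 6 remaining ADAMTS genes 4 had a peak in vWAT with estradiol (4.27 for like span) and 4 in scWAT (4.10). BAT gave 0 (2.38) and Liver 5 (5.07), against 2 in vWAT with vehicle (2.75). The counts in white fat and Liver were thus near those of like span. Adamts19 held 6, 4, 0 and 2 peaks with estradiol, against 0 with vehicle; its strongest vWAT peak (8.52) lay inside the gene, and 4 of the 6 were found in scWAT. Adamts16 held 3 in vWAT and 3 in scWAT at the same places (strongest chr13:70788914-70789638, 6.56) and none in BAT, Liver or the vehicle list. Adamts17 held 4, 0, 0 and 4, against 1, and Adamts6 3, 0, 0 and 5, against 0, with strongest vWAT peaks of 5.21 (chr7:67039199-67039512) and 4.79 (chr13:104516934-104517267). At neither gene did a vWAT estradiol peak overlap a Liver peak. Adamts10 and Adamts18 had no peak in vWAT with estradiol. Each had 1 in scWAT and 1 in Liver, and Adamts10 had 1 in vWAT with vehicle.

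Adam12 (meltrin alpha), which cleaves insulin-like growth factor binding proteins and is known for a role in fat tissue growth in mice, had the most peaks of all 54 members. It held 18 peaks in vWAT with estradiol, 14 in scWAT, 1 in BAT and 3 in Liver, against 0 in vWAT with vehicle. All 18 lay inside its span (chr7:133883199-134225097), 12 overlapped a scWAT peak, 1 a BAT peak and none a Liver peak. The strongest had an enrichment of 16.3 (chr7:133899833-133900660, rank 270 of 20715), followed by 13.2 (chr7:134115366-134115990, also held in BAT), 12.2 (chr7:134146759-134147403) and 10.4 (chr7:134031784-134032306). Of 1074 genes of like span 7 held 18 or more, and 8 of all 21631 genes did, Adam12 included. Where vWAT and scWAT peaks overlapped at Adam12, their summits were a median of 44.5 bp apart (n = 12), beside 45.0 bp over all members (n = 58) and 55.0 bp over all peaks. White fat of both depots thus shared most places along Adam12, and neither Liver nor the vehicle list did.

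**Figure D3:**
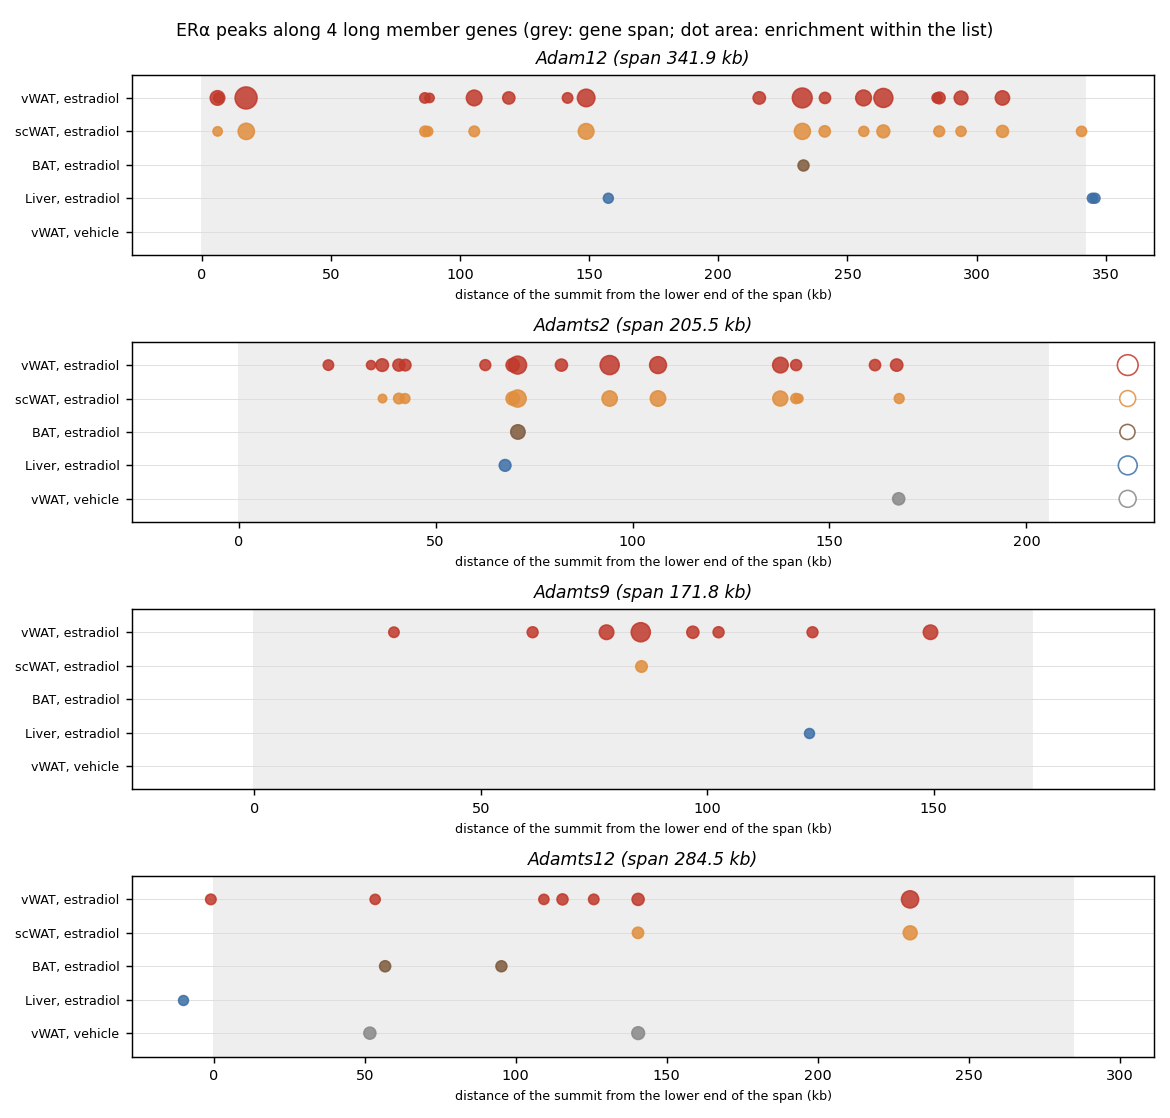
Summits of ERα peaks along Adam12, Adamts2, Adamts9 and Adamts12 in the 5 lists, as distance from the lower end of the gene span in kb; grey marks the span, dot area the enrichment within the list, and open dots peaks that lie nearer to another gene. The red and orange dots of vWAT and scWAT with estradiol line up along Adam12 and Adamts2, Adamts9 is dense in vWAT alone, and the column of open dots right of Adamts2 is the peak at Zfp354c.

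The other ADAMs held fewer. Adam19 (meltrin beta) held 5 in vWAT with estradiol and 6 in scWAT, and none in BAT, Liver or vWAT with vehicle, yet 1 of the 5 overlapped a scWAT peak. Its strongest vWAT peak (4.84) lay inside the gene. Adam33 held 3, 4, 0 and 1, against 0, with the strongest vWAT peak (chr2:131026758-131027154, 6.63) 23.9 kb off in Atrn. Adam17, which encodes the TNF-alpha converting enzyme, held 1, 1, 0 and 3, against 1, and here the vWAT peak (chr12:21373398-21374159, 6.27) overlapped the start site and was found in scWAT, Liver and vehicle lists. Adam9 held 3, 1, 0 and 2, against 1; its strongest (chr8:25017099-25017601, 5.15) was a gene-end peak shared with the neighbour Tm2d2 and held in Liver and with vehicle. Adam10, the sheddase that cuts Notch receptors, had 1 peak in scWAT and 3 in Liver, Adam15 had 1 in BAT, against 1 in vWAT with vehicle, and Adam8 had 1 in Liver alone (chr7:139978544-139979054, 3.77).

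Promoter sequences, 250 bases before to 50 after a start site, were at hand from RefSeq on GRCm38.p6 for 37 members with 42 start sites. A peak of any list overlapped the window of 5 of these 37 members (13.5%), beside 35.6% of the 17274 protein-coding genes with such a window. The 5 were Adam17, Adam19, Adamts17, Adam10 (Liver, 3.60) and Mmp27 (scWAT, 2.91). Those shown are the promoter held with and without added hormone (Adam17), the one of scWAT that holds receptor motifs (Adam19, at a start site inside the gene) and the one of vWAT with estradiol alone (Adamts17, peak enrichment 4.30). ERα binds GGTCA repeated in inverted order with 3 bases between; capitals mark each GGTCA, or TGACC where it lies on the other strand.
Adam17, chr12:21373583-21373882, minus strand: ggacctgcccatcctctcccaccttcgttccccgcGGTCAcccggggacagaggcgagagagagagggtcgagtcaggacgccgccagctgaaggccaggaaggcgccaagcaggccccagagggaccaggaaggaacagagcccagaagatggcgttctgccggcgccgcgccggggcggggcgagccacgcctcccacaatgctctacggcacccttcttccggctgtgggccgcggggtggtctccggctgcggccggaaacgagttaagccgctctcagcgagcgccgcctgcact
Adam19, chr11:46127654-46127953, plus strand: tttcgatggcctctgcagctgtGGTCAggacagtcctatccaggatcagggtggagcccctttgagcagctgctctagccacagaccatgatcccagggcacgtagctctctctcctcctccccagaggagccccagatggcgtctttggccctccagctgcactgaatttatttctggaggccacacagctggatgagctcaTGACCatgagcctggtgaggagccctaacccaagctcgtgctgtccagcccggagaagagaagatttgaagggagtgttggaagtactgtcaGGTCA
Adamts17, chr7:66839485-66839784, plus strand: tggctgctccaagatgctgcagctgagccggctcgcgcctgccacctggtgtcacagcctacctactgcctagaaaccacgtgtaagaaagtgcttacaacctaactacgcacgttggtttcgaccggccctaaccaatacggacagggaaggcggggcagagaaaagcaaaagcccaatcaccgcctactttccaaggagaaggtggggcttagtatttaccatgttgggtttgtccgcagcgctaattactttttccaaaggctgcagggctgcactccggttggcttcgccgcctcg
Counted from 1 at the 5′ end, the Adam17 window holds the motif at position 36, the Adam19 window holds it at positions 23, 204 and 296, and the Adamts17 window has none. The 4 peaks at Adam17 had enrichments of 6.27 in vWAT, 3.30 in scWAT and 5.31 in Liver with estradiol, against 5.11 in vWAT with vehicle, and the scWAT peak at Adam19 had 2.91. The Adam17 motif lay inside the vWAT, scWAT and Liver peaks with estradiol, but past the vehicle peak, which ended at chr12:21373809. The Adam19 motif at position 296 lay past the end of the scWAT peak at chr11:46127902. At least 1 GGTCA or TGACC, both strands searched, was found in 12 of 42 member promoters (28.6%), beside 40.5% of all 32851 promoters. The inverted pair with 3 bases between, which contains both motifs, was in 0 member promoters and in 23 of all (0.07%). A motif match describes the letters only, and the sequences of the peaks inside genes were not analysed here.

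All 4 TIMP genes had a peak in vWAT with estradiol, beside 2.60 for like span and 61.5% of all genes. All 4 also had one in vWAT with vehicle, beside 1.94 and 44.8%. Timp1, the inducible inhibitor, held 1 peak in vWAT with estradiol, 0 in scWAT, 0 in BAT and 1 in Liver, against 1 in vWAT with vehicle. It was the same place in each case (chrX:20848272-20848748, enrichment 8.93 in vWAT with estradiol and 5.75 with vehicle), 21.7 kb off and inside Araf, so Timp1 was the member whose only vWAT estradiol peak lay nearest the limit of 25 kb. The nearest member beyond it was Mmp25, with a summit at 28.4 kb.

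Timp2, which both inhibits MMP2 and helps MMP14 to activate it, held 4, 5, 0 and 3, against 2. Its strongest vWAT peak (chr11:118326959-118327855, 7.84) lay inside the gene, 28.2 kb from the start site, and was shared with scWAT (5.61) and with vehicle (3.77). A second inside peak (5.38) was shared with scWAT and absent with vehicle, and the Liver peaks lay elsewhere, the strongest (8.05) at Usp36. Timp3, which binds to the matrix and also inhibits ADAM17, held 5, 5, 0 and 0, against 2, all of them weak (strongest chr10:86339578-86340160, 4.26, also held with vehicle at 4.46). The gene lies within Syn3, so its peaks inside the span belong to both genes. Timp4 held 2, 1, 1 and 0, against 2, all outside Timp4 and inside Syn2, with the strongest vWAT estradiol peak (chr6:115238529-115238971, 5.42) 5.69 kb off and held with vehicle (4.07). Peaks within their own TIMP gene were thus found for Timp2 and Timp3, and those of Timp1 and Timp4 lay in neighbours.

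**Figure D4:**
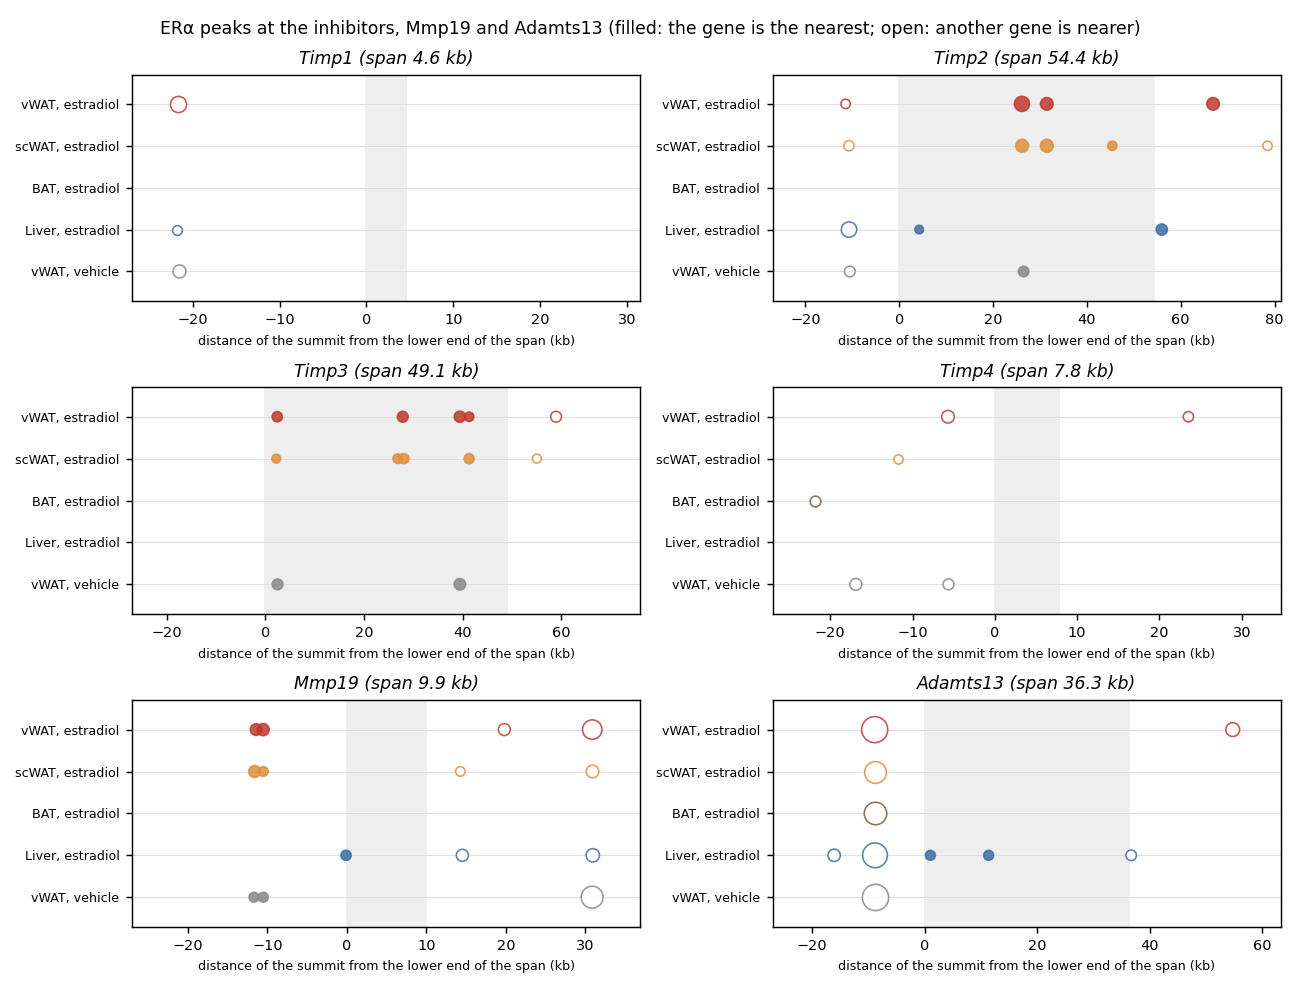
Summits of ERα peaks around the TIMP genes, Mmp19 and Adamts13 in the 5 lists, as distance from the lower end of the span in kb; grey marks the span, dot area the enrichment within the list, filled dots peaks to which the gene is nearest and open dots peaks nearer to another gene. The strong open dots at Mmp19 (12.9 in vWAT with estradiol and 16.3 with vehicle) and Adamts13 (23.1 and 23.5) lie at neighbouring genes.

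By treatment, vWAT peaks were split into those of the estradiol list with no overlapping vehicle peak (16015), those held with both (4700) and those of the vehicle list alone (2677). An estradiol-only peak was found for 31 members, beside 46.3% of all genes and 28.4 members for like span. A peak held with both was found for 15, beside 34.9% and 19.97, and a vehicle-only peak for 8, beside 17.7% and 10.9. By peaks, 107 member peaks were estradiol-only, beside 62.2 for like span (ratio 1.72, or 1.31 without Adam12 and Adamts2), 20 were held with both, beside 26.7 (0.749), and 9 were vehicle-only, beside 12.7 (0.71). Members were thus nearer to, or above, genes of their span in estradiol-only peaks, and below them in the other classes.

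Gene by gene, 18 members had a vWAT peak with estradiol and none with vehicle, and 2 (Adam15 and Adamts10) had the reverse. The 18 included Adam12, Adam19, Adam33, Adamts9, Adamts16, Adamts19, Mmp2, Mmp14 and 10 with 1 to 3 peaks each. Over all genes, 20.1% had vWAT peaks with estradiol alone and 3.40% with vehicle alone. Of the others, 17 members had peaks in both lists and 17 in neither. By peak count, 29 members (53.7%) had more peaks in the estradiol list, 3 (5.56%) more in the vehicle list, and 5 the same number above 0. Over all genes, 40.4% had more in the estradiol list, which is the longer, and 7.10% more in the vehicle list.

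The lists were also held to their 5193 strongest peaks by p-value. Then 12 members had a peak in vWAT with estradiol, beside 28.9% of all genes and 17.3 for like span, 10 in scWAT (27.8%, 16.7), 11 in BAT (29.7%, 18.2) and 11 in Liver (35.8%, 21.1), against 13 in vWAT with vehicle (37.3%, 21.6). At this size 8 members had an estradiol-only vWAT peak (11.2%, 7.51), 6 one held with both (20.2%, 11.5) and 9 a vehicle-only one (22.6%, 13.2). Adam12 kept 9 peaks in vWAT with estradiol, 5 in scWAT, 1 in BAT and 0 in Liver, against 0 in vWAT with vehicle, and Adamts2 7, 6, 2 and 1, against 2. By peaks, members at this size held 29 in vWAT with estradiol, beside 23.5 for like span, against 17 in vWAT with vehicle, beside 29.1, and 23 were estradiol-only, beside 9.95 (ratio 2.31). So at equal size the number of members with a peak in vWAT was not higher with estradiol, while the number of their peaks was, Adam12 and Adamts2 together holding 16 of the 29.

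Peak by peak, the member peaks of vWAT with estradiol overlapped scWAT peaks about as often as all peaks of that list did. At the reach of 25 kb they overlapped BAT and Liver peaks less often. Of 126 distinct peaks 58 (46.0%) overlapped a scWAT peak, beside 48.4% of all vWAT estradiol peaks. Overlap was 5 (3.97%, 95% interval 1.71 to 8.95%) with BAT, beside 11.1%, and 10 (7.94%, 4.37 to 13.99%) with Liver, beside 22.8%, and 20 (15.9%, 10.5 to 23.2%) with vWAT vehicle, beside 22.7%. All peaks of the list were not matched to the members by gene span or by place. With a reach of 100 kb the shares were 22.1% in Liver, 26.6% in vWAT with vehicle and 8.86% in BAT. The lower share in Liver thus depended on the reach. From the other side, 64.8% of 88 scWAT member peaks overlapped a vWAT estradiol peak, beside 56.0% of all. These intervals cover counting error over peaks, which share genes, and not the spread between animals. The member peaks were of usual strength: their median enrichment was 4.63 in vWAT with estradiol (4.84 over all peaks), 3.54 in scWAT (3.43), 4.22 in BAT (4.32) and 3.72 in Liver (3.91), against 4.85 in vWAT with vehicle (4.77).

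The white fat peaks of members lay inside the gene body more often than those of genes of like span. In vWAT with estradiol 77 of 127 (60.6%, 51.9 to 68.7%) lay inside the span over 1 kb from either end, beside 39.0% for genes of like span. Another 9 (7.09%) lay within 1 kb of an end, beside 17.7%. Of the 77 inside peaks, Adam12 held 18 and Adamts2 15, and each of these also had its own gene as the nearest. The shares here include this pair, and the interval takes no account of peaks that share a gene. In scWAT 60.7% lay inside, beside 31.6%, and in Liver 37.1%, beside 37.6%, against 24.1% in vWAT with vehicle, beside 19.7%. The member was itself the nearest gene for 97 of 127 vWAT estradiol peaks (76.4%, beside 64.1% for like span), against 12 of 29 in the vehicle list (41.4%, beside 51.4%). For the estradiol-only peaks it was the nearest for 88 of 107 (82.2%, beside 71.4%), and for those held with both treatments for 9 of 20 (45.0%, beside 47.1%). The vehicle share had an interval of 25.5 to 59.3%, which covers the value for like span. At Adamts13, Mmp23, Timp1 and Timp4 a neighbour was nearer to the peaks of both vWAT lists. These places describe the same peaks as the counts above and are not separate evidence.

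A list of 40 other genes of matrix proteolysis held, among others, plasminogen activators, serpins, proprotein convertases and cathepsins. It was chosen with earlier results of these data known, so its counts are not separate evidence. In vWAT with estradiol 34 of these genes had a peak (27.5 for like span, 61.5% of all genes) and in scWAT 31 (26.9, 61.0%). BAT gave 12 (13.7, 29.7%) and Liver 26 (30.6, 67.5%), against 18 in vWAT with vehicle (19.6, 44.8%). An estradiol-only vWAT peak was found for 30 of them (21.4 for like span, 46.3% of all genes), which is 75 peaks beside 47.8. Pcsk5, a convertase that cuts proproteins, held 12, 15, 3 and 4, against 1, along 405.4 kb. Ctsb, which encodes the lysosomal protease cathepsin B, held 8, 4, 0 and 0, against 0. Lrp1, the receptor that takes up protease-inhibitor complexes, held 8, 8, 1 and 6, against 4. Plat, the tissue plasminogen activator, held 2, 2, 0 and 1, against 2, with an enrichment of 13.9 in vWAT with estradiol and 13.96 with vehicle, and Serpine2, an inhibitor of serine proteases, had a peak of 22.5 in vWAT with estradiol and 22.7 with vehicle. A2m and Meltf had no peak in any list.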

How the data were processed

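ERα ChIP-seq peak lists of 5 groups were used out of the 21 samples of the series; H3K27ac ChIP-seq and RNA-seq samples were not analysed here. The labels gave the group of every sample. Frozen tissue served for isolation and sonication of nuclei before the antibody step, per the labels' protocols. The submitters' processing notes name build mm10 and the tools BWA 0.7.12 and HOMER, with no role. Not given in the sources used here are the peak caller, its cut-off and control, how libraries were combined, the dose and timing of treatment, and the animals behind each library.

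Each deposited peak carries the authors' enrichment ratio, its −log10 p-value and −log10 q-value, a score and a summit position. The deposited lists held 20723 peaks (vWAT with estradiol), 17987 (scWAT), 5197 (BAT) and 21417 (Liver), and 7409 (vWAT with vehicle), of which those on chromosomes 1 to 19 and X were used. Coordinates count from 1. Read depth is unknown, so no precision per library can be given. Enrichment was compared within a list, and lists were also held to equal size, since a longer list can hold weaker peaks.

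Gene spans came from the RefSeq table of GRCm38.p6, the assembly of mm10, which gives no strand or exons, so exons and introns were not analysed here. An overlap of 1 bp or more made a peak shared between lists. Wilson intervals are at 95% and cover counting error over peaks. The counting was tested on simulated peaks. Members, gene groups and lists were chosen with earlier results of these data known. Full values are given for the TIMPs, for up to 4 members of each role group by strongest vWAT estradiol peak, for members with a peak in all lists and for members with peaks in 1 list. A result that this rule gives for Adamts4 is not reported here. Alternatives covered the distance, list size, a −log10 q-value of at least 2, the nearest gene only, 10 span classes, summits within 100 bp and a gene end of 5 kb; leaving out Adam12 and Adamts2 was added after the data were seen. Python 3.11.15, numpy 2.4.6, pandas 2.3.3 and matplotlib 3.10.9 were used.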

Additional observations from a re-analysis of the deposited data

How the results depend on the processing

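No paired analysis was possible because each group has 1 deposited list with no column per library, and for the same reason no library could be left out. Of the values recomputed under the alternatives, 104 stayed within 1.5 times the count or within their interval and 54 moved, and 2 ratios to like span changed side: peaks held with both treatments came to 1.14 at 100 kb, and scWAT to 0.821 without Adam12 and Adamts2. Members with a peak in vWAT with estradiol, scWAT, BAT and Liver, and last in vWAT with vehicle, were as follows where they moved. With summits inside the span alone they were 20, 19, 3 and 17, against 7. At equal list size they were 12, 10 and 11 in vWAT with estradiol, scWAT and Liver. BAT gave 7 at 5 kb, 23 at 100 kb, 2 at a −log10 q-value of at least 2 and 4 by nearest gene. Liver gave 18 at that q-value and 22 by nearest gene. The vehicle list gave 11 at 5 kb, 35 at 100 kb and 9 by nearest gene. Estradiol-only members numbered 48 at 100 kb, 20 inside the span and 8 at equal size. Members with a peak held with both numbered 8 at 5 kb, 32 at 100 kb, 5 inside the span, 6 at equal size, 7 by nearest gene and 9 for summits within 100 bp. Vehicle-only members numbered 4 at 5 kb, 13 at 100 kb, 2 inside the span, 4 at that q-value, 3 by nearest gene and 15 for summits within 100 bp. Apart from equal list size, where they stand above, the shares of all genes at these settings are not given here. A wider or narrower reach changes the count of any gene, so these shifts are not a result about the members.

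The ratio to like span moved to 1.76 for scWAT and 0.368 for vehicle-only peaks inside the span, to 0.444 for peaks held with both at equal size, to 0.33 for BAT at that q-value, and to 0.363 for BAT and 0.395 for vehicle-only peaks by nearest gene. The share of vWAT estradiol peaks found in scWAT was 55.2% at equal size and 36.5% for summits within 100 bp. In BAT it was 13.8% at equal size. In Liver it was 22.1% at 100 kb, 17.2% at equal size and 3.17% for summits within 100 bp, and in vWAT with vehicle 9.89% at 5 kb, 26.6% at 100 kb and 8.73% for summits within 100 bp. At 100 kb the Liver and vehicle shares were thus no longer well below those of all peaks (22.8 and 22.7%). At equal size 75.9% of vWAT estradiol peaks lay inside the gene and 3.45% at a gene end, and with a gene end of 5 kb 16.5% did. Other matrix proteolysis genes with a peak at equal size numbered 18 in vWAT with estradiol (13.0 for like span) and 15 in scWAT (12.5). Liver gave 11 (15.7), against 11 in vWAT with vehicle (16.1). The cause of these shifts was not tested. Reach, list size and nearness all change which peaks count, and with 1 list per group no count carries an error between animals.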
